A study of Mus musculus with 6 samples.

Results

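The genes described here are 34 targets of the tumour suppressor p53 and related antiproliferative genes, chosen by name and leaving out the cyclin-dependent kinase inhibitors. Of these, 33 had a probe set that the platform annotation assigns to that gene alone, and each of the 33 had exactly 1 such probe set. Gdf15 was not analysed here. The array table holds 35556 probe sets, of which 21789 carry exactly 1 gene symbol and name 19938 genes. The arrays, 1-colour Affymetrix, were hybridised with RNA of 6 samples of pre-B cells from mice. BCR-ABL1, the constitutively active kinase behind Philadelphia chromosome-positive leukemia, had transformed the cells. In 3 samples the cells were wild type for Etv5 and in 3 they were Etv5 knockout. Etv5 is an ETS-family transcription factor. All 6 samples carried BCR-ABL1 and were labelled strain 129SvEv. The labels do not say how BCR-ABL1 was delivered, which exons the knockout allele lacks, or whether the samples of 1 genotype stem from different mice. The p-values therefore measure only the spread among these arrays, which may be technical.

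p53 is a transcription factor that is held low by the ubiquitin ligase MDM2 and accumulates after DNA damage or oncogene activity. It binds a pair of decamers in the promoters or introns of its targets, and the products arrest the cell cycle, repair DNA, restrain growth signalling, trigger cell death or shut p53 off again. In B cell precursors the ARF product of Cdkn2a frees p53 from MDM2 when an oncogene such as BCR-ABL1 is active. Many of these genes also answer to other factors: FOXO proteins, for example, are known to induce Ccng2, Sesn3 and Gadd45a.

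Promoter sequences of some of the genes are shown first. Among 28 of the 34 genes with a promoter window in the RefSeq table (assembly GRCm38.p6, 250 bases before to 50 after a start site, 37 windows), 9 held an exact match to the 10-base p53 consensus decamer. An exact match stood in 10 of the 37 windows (27%), against 8.36% of all 32851 windows. A pair of decamers with at most 2 mismatches in all and a gap of at most 13 bases stood in 7 of the 37 windows (18.9%), against 10.1% of all windows. The windows of Aen overlap and hold the same exact match and the same pair, which are counted once for each window. The decamer reads the same on both strands. The stretches below surround 5 of the matches upstream of the start site and show what exact matches look like, all in genes that did not pass the test of knockout against wild type; capitals mark the decamer.
Ccng1, chr11:40755447-40755486, minus strand: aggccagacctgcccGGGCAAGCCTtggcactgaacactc
Mdm2, chr10:117710920-117710959, minus strand: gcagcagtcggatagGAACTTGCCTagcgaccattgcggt
Gadd45a, chr6:67037423-67037462, minus strand: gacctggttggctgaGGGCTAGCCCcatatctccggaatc
Ei24, chr9:36797335-36797359, minus strand: tgccccgtgcggcccGGGCATGCCC
Ppm1d, chr11:85311107-85311146, plus strand: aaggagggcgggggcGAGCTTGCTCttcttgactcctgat

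In Ccng1 the 10 bases before the capitals form a second decamer with 1 mismatch and no gap, so that the window holds a full p53 site. The windows of Btg2 and Btg1, whose signals changed most clearly among the genes with a window, held no exact decamer. Their 250 upstream bases are given below, with capitals for the cAMP response element TGACGTCA in Btg2 and for the FOXO motif TGTTTAC in Btg1. These motifs and the ETS motif CCGGAAG were searched on both strands after the sequences had been seen.
Btg2, chr1:134079156-134079405, minus strand: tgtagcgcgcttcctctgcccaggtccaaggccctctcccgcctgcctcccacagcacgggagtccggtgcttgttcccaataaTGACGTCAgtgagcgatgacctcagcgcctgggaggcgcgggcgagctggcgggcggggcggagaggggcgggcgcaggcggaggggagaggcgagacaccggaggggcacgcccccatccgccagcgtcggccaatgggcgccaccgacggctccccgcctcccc
Btg1, chr10:96616751-96617000, plus strand: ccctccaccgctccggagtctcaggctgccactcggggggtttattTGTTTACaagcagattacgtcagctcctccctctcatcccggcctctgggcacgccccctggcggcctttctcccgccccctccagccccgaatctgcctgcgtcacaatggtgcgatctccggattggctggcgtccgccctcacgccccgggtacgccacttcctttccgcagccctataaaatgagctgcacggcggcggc

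TGACGTCA stood in 1.79% of all windows and in 3 of the 37, those of Btg2, Plk2 and Ppm1d. TGTTTAC stood in 3.65% of all windows and in those of Btg1, Mdm2 and Sesn1. CCGGAAG stood in 8.86% of all windows and in those of Mdm2, Mdm4, Ccng2, Gtse1 and Pidd1. None of these matches overlapped a decamer. A match describes letters in the window and shows no binding, and p53 sites in introns, such as those known for Mdm2, lie outside these windows.

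Few of the 33 genes passed the test, and most of the rest lay slightly higher in the knockout. By limma over all 35556 probe sets with Benjamini-Hochberg adjustment at 0.05, Btg2, Btg1 and Zmat3 rose, none fell and 30 did not pass; over all 19938 genes, 2.42% rose and 2.01% fell. The mean was higher in the knockout for 26 of the 33 genes, against 48.2% of all genes. In 20 genes all 3 knockout values lay above all 3 wild-type values, against 10.2% of all genes, and in 2 genes (Ercc5 and Apaf1) all lay below, against 10.2%. With unadjusted limma p-values under 0.05, 18 genes were higher (7.2% of all genes) and 1, Ercc5, was lower (6.25%). The median log2 change, knockout minus wild type, was 0.15, with a range of -0.20 to 1.29, beside a median of -0.0039 over all genes. The genes were chosen with earlier results of these arrays known, so these shares describe the list and do not test it.

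**Figure D1:**
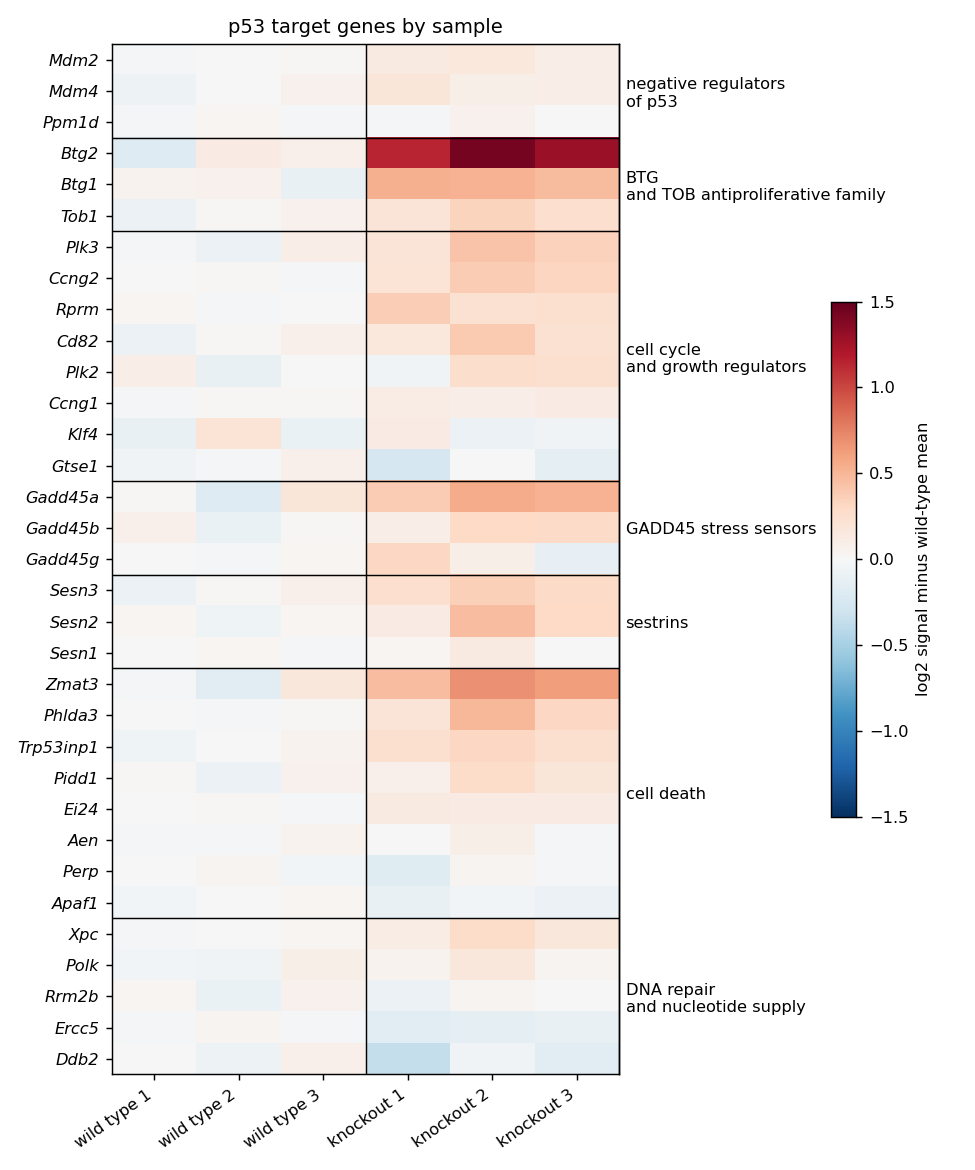
Log2 signal of the 33 measured p53 target genes (rows, grouped by role) in the 6 samples (columns), as the difference from each gene's wild-type mean; red is higher and blue lower. Btg2 has the strongest red in all 3 knockout samples, and the knockout columns are redder than the wild-type columns in most rows outside the DNA repair genes.

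The count of genes called changed with the settings and with single samples. With only the probe sets that name 1 gene in the test, 9 genes passed, all higher: the 3 above and Ccng2, Gadd45a, Phlda3, Rprm, Sesn3 and Trp53inp1. In that fit 1394 of the 21789 probe sets passed (6.4%), against 1095 of 35556 (3.08%) with all probe sets tested. Without knockout sample 2 only Btg2 passed, and Btg2 and Btg1 alone passed when sample 1 or 2 of the wild type or sample 3 of the knockout was left out. Without knockout sample 1 Zmat3 was lost and Ccng2 passed.

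The BTG and TOB family held the largest rise and 2 of the 3 genes that passed. These proteins bind the CCR4-NOT deadenylase, shorten the lives of mRNAs and hold back proliferation; in humans BTG1 is recurrently deleted in B cell precursor leukemia. Btg2, a direct p53 target, had log2 signals of 8.34, 8.65 and 8.60 in the wild type, against 9.67, 9.97 and 9.83 in the knockout. Every knockout sample lay more than 1 log2 unit above every wild-type sample. Btg2 rose 2.45-fold (log2 change 1.29 ± 0.11 SE, 95% interval 1.02 to 1.57, limma adjusted p = 0.00284), the 63rd highest change of the 19938 genes.

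Btg1, its close relative, had signals of 11.71, 11.73 and 11.56 in the wild type, against 12.20, 12.19 and 12.14 in the knockout. The groups were apart by 0.42 log2 units between the nearest samples, and the knockout samples lay close together (SD 0.031, n = 3). Btg1 rose 1.43-fold (log2 change 0.51 ± 0.064 SE, limma adjusted p = 0.0107), and lost its call without knockout sample 2 (adjusted p = 0.0511). Tob1 had signals of 8.87, 8.98 and 9.03 against 9.16, 9.29 and 9.21, without overlap, but did not pass (log2 change 0.26, limma adjusted p = 0.15). Among paralogs, the signals of Tob2 did not overlap either and it missed the threshold narrowly (log2 change 0.32, limma adjusted p = 0.0503), while Btg4 differed by 0.10 (limma adjusted p = 0.926). None of the 10 measured paralogs passed. Of these 10, 4 including Tob2 were higher without overlap and none lower, against 10.2% of all genes each way.

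**Figure D2:**
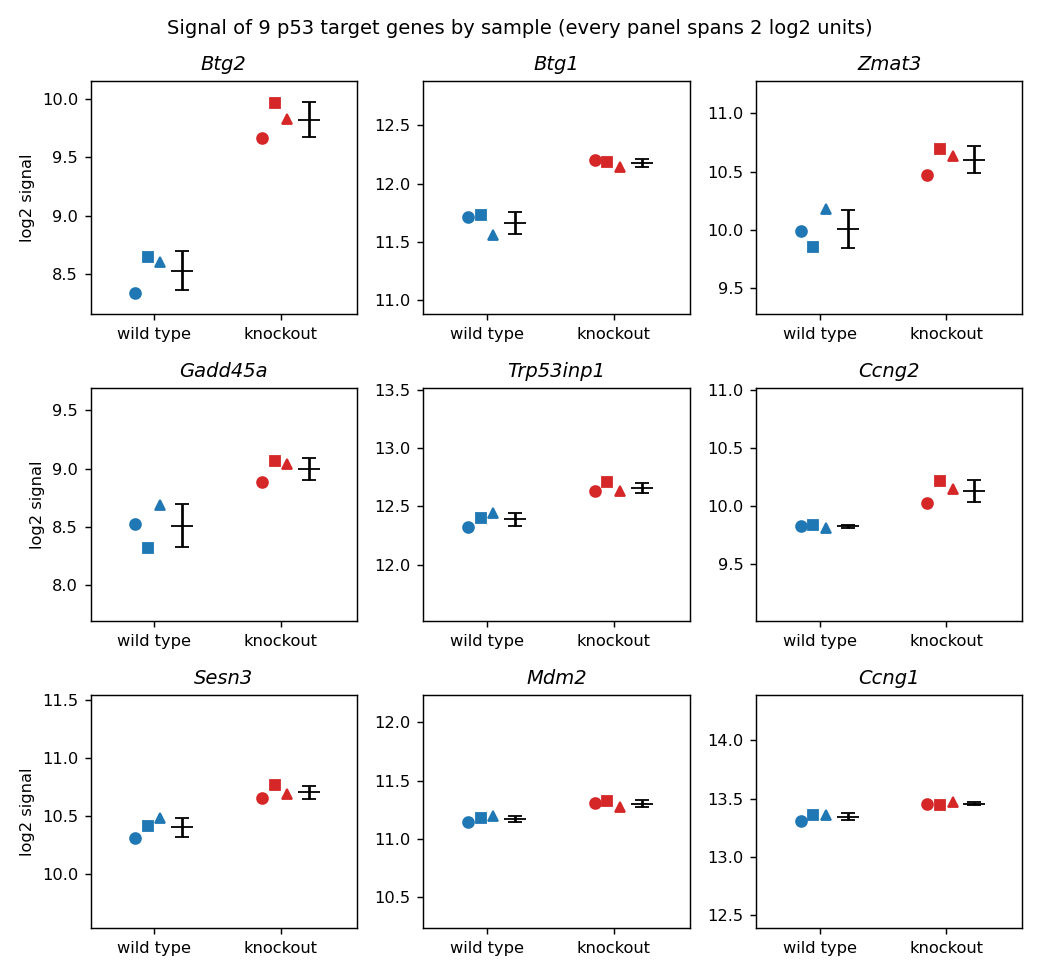
Log2 signal of 9 of the genes in the wild-type (blue) and knockout (red) samples; circles, squares and triangles are samples 1, 2 and 3, and the black bars give the mean and SD of 3 samples. The gap between genotypes is widest for Btg2, from 8.53 ± 0.167 to 9.82 ± 0.151, and narrow for Mdm2 and Ccng1.

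The feedback inhibitors of p53 differed little. Mdm2, the ubiquitin ligase that degrades p53 and is itself one of its best known targets, had signals of 11.15, 11.18 and 11.19 in the wild type, against 11.31, 11.33 and 11.27 in the knockout. The groups did not overlap, and the difference was 0.13 (95% interval 0.02 to 0.25, limma adjusted p = 0.356). Its relative Mdm4, which masks the activation domain of p53, had 11.65, 11.74 and 11.80 against 11.91, 11.81 and 11.83. That difference, 0.12, had a 95% interval of -0.02 to 0.27 and did not pass (limma adjusted p = 0.576). Ppm1d, encoding the phosphatase WIP1 that reverses the activating phosphorylation of p53, overlapped between genotypes, with a difference of 0.0079 (95% interval -0.12 to 0.13). None of the 3 had an interval reaching 0.3 log2 units.

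Among the genes of cell death, Zmat3 rose. Zmat3 encodes a zinc-finger RNA-binding protein that p53 induces. Its signals were 9.99, 9.86 and 10.18 in the wild type, against 10.47, 10.70 and 10.64 in the knockout, so that the highest wild-type sample lay below the lowest knockout sample. It rose 1.51-fold (log2 change 0.59 ± 0.10 SE, limma adjusted p = 0.0376) and lost its call in 5 of the 6 fits that left out 1 sample, all but that without wild-type sample 3 (highest adjusted p 0.156).

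Other genes of this group lay higher without passing. Phlda3, which keeps AKT from the membrane, had 9.61, 9.60 and 9.63 against 9.81, 10.11 and 9.92 (log2 change 0.33, limma adjusted p = 0.136). Trp53inp1, a nuclear cofactor of p53 that also serves autophagy, had 12.33, 12.40 and 12.44 against 12.63, 12.71 and 12.63 (log2 change 0.27, limma adjusted p = 0.0722). In both, the groups did not overlap. Ei24, an endoplasmic reticulum protein of autophagy, differed by 0.12 with little spread in either genotype, and Pidd1, the scaffold that activates caspase-2, by 0.18 (limma adjusted p = 0.364 and 0.45). The other death genes did not follow: the nuclease gene Aen differed by 0.03, the membrane protein gene Perp by -0.05, and Apaf1, the core of the apoptosome, by -0.08 with all knockout samples below all wild-type samples (limma adjusted p = 0.971, 0.938 and 0.72).

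The GADD45 proteins and the sestrins are stress sensors; the first act on stress kinases and DNA repair, the second restrain mTORC1. Gadd45a had signals of 8.52, 8.32 and 8.69 in the wild type, against 8.89, 9.07 and 9.04 in the knockout. The groups were apart, yet the spread of the wild-type samples (SD 0.183, n = 3) was wide and the change of 0.49 ± 0.11 (SE) did not pass (limma adjusted p = 0.0849). Gadd45b differed by 0.23 without overlap (limma adjusted p = 0.328), and Gadd45g by 0.09 with the knockout samples on both sides of the wild type (limma adjusted p = 0.922).

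Sesn3 had signals of 10.32, 10.42 and 10.48 in the wild type, against 10.66, 10.77 and 10.69 in the knockout, a change of 0.30 (limma adjusted p = 0.081). Sesn2, a leucine sensor, had 8.68, 8.58 and 8.68 against 8.76, 9.11 and 8.94, a change of 0.29 (limma adjusted p = 0.281). Neither pair of groups overlapped, whereas those of Sesn1, the sestrin most tied to p53, did, with a change of 0.06 (95% interval -0.08 to 0.19).

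Regulators of the cell cycle and growth had a median change of 0.20 over 8 measured genes, and none passed. Without overlap, 5 of the 8 were higher and none lower, against 10.2% of all genes each way. Ccng2, an atypical cyclin that slows the cycle, had 9.83, 9.84 and 9.82 in the wild type, against 10.03, 10.21 and 10.15 in the knockout (log2 change 0.30, limma adjusted p = 0.0704). Ccng1, its relative and a classical p53 target that guides phosphatase 2A to MDM2, had 13.31, 13.36 and 13.36 against 13.46, 13.45 and 13.47 (log2 change 0.11, limma adjusted p = 0.458). Rprm, a mediator of G2 arrest, had 8.33, 8.27 and 8.30 against 8.66, 8.52 and 8.54 (log2 change 0.28, limma adjusted p = 0.0725). In these 3 genes the genotypes did not overlap.

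The stress kinase gene Plk3 and the tetraspanin gene Cd82 were also without overlap, with changes of 0.32 and 0.26 (limma adjusted p = 0.156 and 0.25). Plk2, a related kinase, and Klf4, a transcription factor of growth arrest, overlapped, with changes of 0.15 and -0.0067 (limma adjusted p = 0.777 and 0.997). Gtse1, which carries p53 out of the nucleus in G2, differed by -0.13 with overlap (limma adjusted p = 0.72).

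The DNA repair genes did not share the upward shift. Of 5 genes, 2 had a higher mean in the knockout and 3 a lower one, with a median of -0.015, and none passed. Ercc5, the XPG endonuclease of nucleotide excision repair, had 10.03, 10.10 and 10.03 in the wild type, against 9.89, 9.91 and 9.95 in the knockout, a change of -0.14 without overlap (limma adjusted p = 0.344). Xpc, which recognises damage in the same pathway, had 9.66, 9.66 and 9.70 against 9.79, 9.95 and 9.84, a change of 0.19 in the other direction (limma adjusted p = 0.257). Ddb2, which finds ultraviolet lesions, differed by -0.20, the translesion polymerase gene Polk by 0.09 and Rrm2b, the ribonucleotide reductase subunit induced by p53, by -0.015. The groups of these last 3 genes overlapped, and whether repair genes differ from the other groups was not tested.

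**Figure D3:**
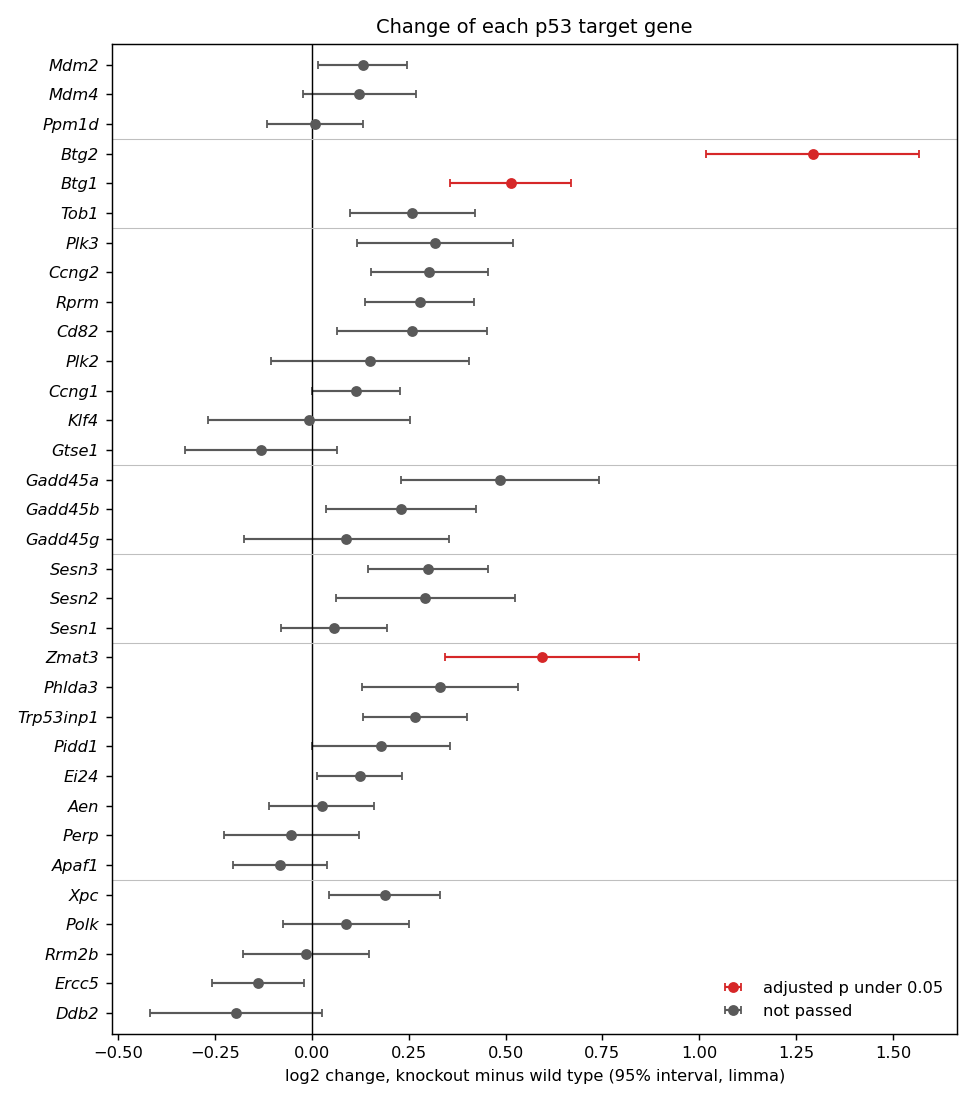
Log2 change (knockout minus wild type) of the 33 genes, grouped by role in the same order as above, with 95% intervals from limma on 3 samples per genotype; red marks an adjusted p under 0.05. Btg2, Btg1 and Zmat3 are the red points, and 26 of the 33 points lie above 0.

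Genes with and without a decamer in their promoter window were set side by side. The 9 genes with an exact match (Mdm2, Ppm1d, Ccng1, Gtse1, Gadd45a, Sesn1, Ei24, Aen and Polk) had a median change of 0.09, with a range of -0.13 to 0.49, and none passed. The 18 measured genes whose windows held none had a median of 0.26 and included Btg2 and Btg1. The 6 genes with no window listed (Zmat3, Trp53inp1, Perp, Ddb2, Xpc and Rrm2b) had a median of 0.09. This is a description of small groups, and no test was run on it.

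The shift of the genes was also read sample by sample. Each gene's deviation from its mean over the 6 arrays had a median over the genes of -0.09, -0.10 and -0.06 in the wild-type samples, and of 0.03, 0.13 and 0.08 in the knockout samples. All 3 knockout samples lay above all 3 wild-type samples by this measure, while over all genes the same medians lay between -0.028 and 0.034. Knockout sample 2 was the highest of its genotype for 25 of the 33 genes, against 54.8% of all genes, and knockout sample 1 the lowest for 21, against 43.3%. In the wild type, sample 3 was the highest for 20 of the 33 genes, against 39.6% of all genes. Each of these shares was larger among the 33 genes than over all genes. The part of these sample differences in the results was not tested. Above the dimmest 40% of probe sets, 20 of 32 genes were without overlap and higher, against 13.3% of 12843 genes.

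**Figure D4:**
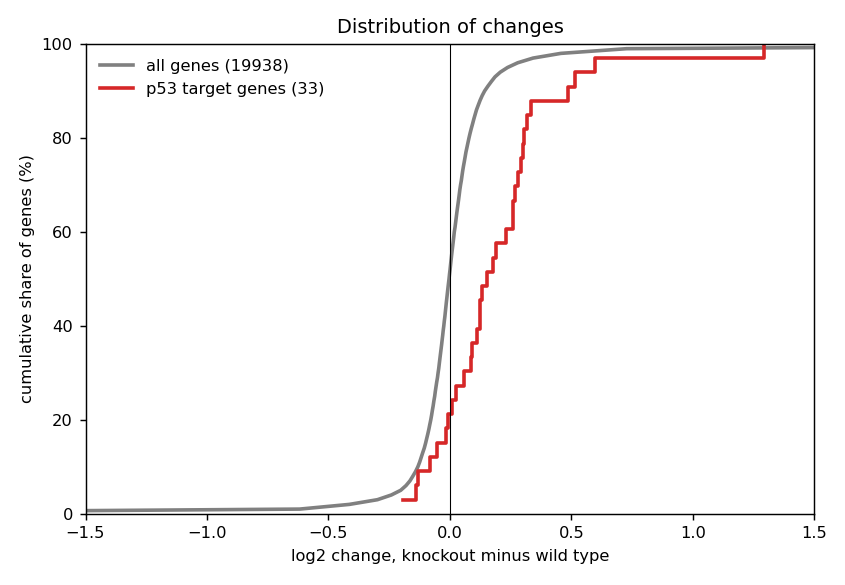
Cumulative share of genes (vertical axis, %) by log2 change, knockout minus wild type (horizontal axis, with the far tails left out), for all 19938 genes (grey) and the 33 p53 target genes (red). The red curve lies to the right of the grey one over most of its course, with medians of 0.15 and -0.0039.

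In further lists of p53 pathway genes, most members did not pass. Of 20 measured regulators upstream of p53, only Cdkn2a passed. Its signals were 8.73, 8.79 and 8.82 in the wild type, against 9.41, 9.53 and 9.42 in the knockout, a rise of 1.59-fold (limma adjusted p = 0.00294); the annotation does not say whether this probe set reads ARF, p16 or both. The median of the 20 was -0.0031. Trp53 itself was not analysed here.

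Of 13 measured CDK inhibitors and core death effectors, none rose and 1 fell: Casp6, an executioner caspase gene, fell by 0.89 on the log2 scale (limma adjusted p = 0.000922). Without the adjustment, 1 of the 13 was higher (7.2% of all genes) and 4 were lower (6.25%) at a limma p under 0.05. Bak1, Pmaip1 and Tnfrsf10b, which encode death effectors and a death receptor, were below every wild-type sample in all 3 knockout samples, by log2 differences of -0.23, -0.21 and -0.20, and did not pass (limma adjusted p = 0.108, 0.384 and 0.322). Over the 13 genes, 4 lay lower without overlap and 3 higher without overlap, against 10.2% of all genes each way. Bbc3, which encodes the p53-induced killer PUMA, had 8.66, 8.66 and 8.59 against 8.67, 8.66 and 8.57, a difference of -0.0037 (95% interval -0.14 to 0.13). Cdkn1a and Bax, textbook p53 targets, were not analysed here. The median of the 13 was 0.0069.

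Of 32 further p53 target genes, 4 rose and none fell, 28 did not pass, and the median change was 0.08. The matching shares of all genes were 2.42% for rises and 2.01% for falls. In 20 of the 32 the knockout had the higher mean, beside 48.2% of all genes. The genotypes stood fully apart upward in 13 and downward in 2, where all genes gave 10.2% for each direction. Before adjustment, 13 rises and 2 falls had a limma p below 0.05, beside 7.2% and 6.25% of all genes. Epha2, a receptor tyrosine kinase gene, had 8.44, 8.30 and 8.55 in the wild type, against 9.98, 10.12 and 10.13 in the knockout, a rise of 3.13-fold (limma adjusted p = 0.000394). The epoxide hydrolase gene Ephx1 rose 2.02-fold, the mTORC1 inhibitor gene Ddit4 1.82-fold and Trp53inp2, a relative of Trp53inp1 in autophagy, 1.41-fold (limma adjusted p = 0.00159, 0.00366 and 0.0152). These genes respond to other factors besides p53. Trp53inp2 lost its call in 4 of the 6 fits that left out 1 sample (highest adjusted p 0.0792).

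Of 18 measured FOXO factors and targets, Irs2, an insulin receptor adaptor gene, rose by 1.08, Txnip, encoding a thioredoxin-binding arrestin, by 0.53 and Cat, encoding catalase, by 0.29 (limma adjusted p = 0.00116, 0.00476 and 0.0358). None fell, 15 did not pass, and the median was 0.15, the same as for the p53 target genes. Over all genes, 2.42% rose and 2.01% fell. Knockout means exceeded wild-type means in 15 of the 18 FOXO genes, beside 26 of the 33 p53 target genes and 48.2% of all genes. Separation without overlap was upward in 10 FOXO genes and downward in 1, against 10.2% of all genes each way. Before adjustment, limma put 9 FOXO genes below a p of 0.05, all with a rise, against 7.2% of all genes. The upward shift was thus not particular to the p53 target genes, and a difference between the lists was not tested. Cat lost its call in all 6 fits that left out 1 sample (highest adjusted p 0.172). None of 19 cell cycle genes passed, with a median of -0.016. At an unadjusted limma p under 0.05, 1 was lower (6.25% of all genes) and none higher (7.2%). Without overlap, 3 of the 19 were lower and none higher, against 10.2% of all genes each way. The mean log2 level of the cell cycle list was 12.68 to 12.71 in the wild-type samples and 12.66 to 12.71 in the knockout samples.

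**Figure D5:**
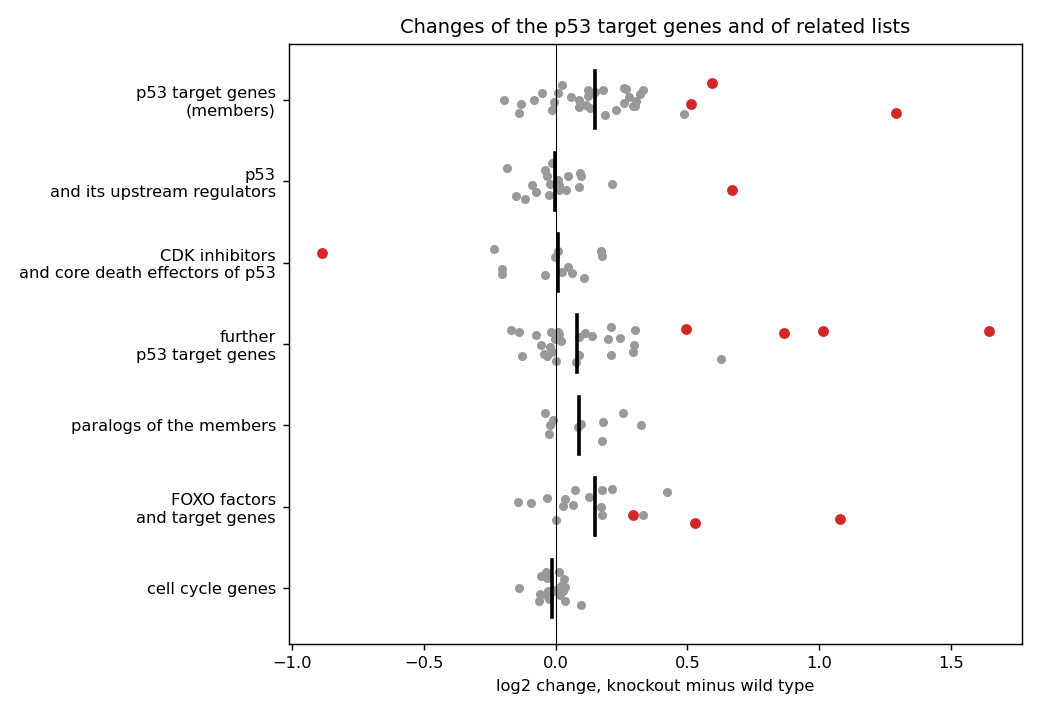
Log2 change, knockout minus wild type, of every measured gene (points) in the p53 target genes and 6 related lists, with the list median as a black bar; red points passed limma at an adjusted p of 0.05. The vertical scatter within a list carries no value. The medians are 0.15 for the p53 target genes and the FOXO list and near 0 for the upstream regulators and cell cycle genes.

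As checks of the labels, Etv5 had a pair of probe sets that disagreed. Probe set 10438626 gave 9.30, 9.52 and 9.27 in the wild type, against 8.97, 8.91 and 8.92 in the knockout (limma adjusted p = 0.0467, and 0.0712 to 0.18 with 1 sample left out), and probe set 10363901 gave 11.48, 11.52 and 11.46 against 11.67, 11.88 and 11.73 (adjusted p = 0.13). Where their probes lie relative to the deletion is not known here, so neither is a check of the knockout. The 11 measured markers of B cell precursors had mean log2 levels of 12.70 to 12.75 in the wild-type samples and 12.71 to 12.78 in the knockout samples; Pax5 rose and Dntt fell (limma adjusted p = 0.0127 and 0.0132). The 8 myeloid markers averaged at most 7.11 in a wild-type sample and at least 7.13 in a knockout sample, with rises of Ly6g and Itgam (limma adjusted p = 0.0156 and 0.0235), while Mpo, Elane, Csf1r, Adgre1, Lyz2 and Cd14 did not pass. Lyz2 was lower in every knockout sample than in any wild-type sample, with a log2 difference of -0.32 (limma adjusted p = 0.473), and Cd14 differed by -0.037 with overlapping groups (adjusted p = 0.985). None of the 7 T and NK cell, 3 erythroid and megakaryocyte or 7 stromal and endothelial markers passed, and their average levels overlapped between the genotypes. The table gives no detection calls, so no marker can be called absent. The part of other cells in the results was not tested, and in bulk RNA a change in the share of cells cannot be told apart from a change per cell.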

How the data were processed

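Biotin-labelled total RNA of 6 samples was measured on 1-colour arrays, per the labels' protocols. The table the authors deposited holds a log2 value per probe set (35556) and sample. The submitters' processing notes name RMA and Partek 6.5. RMA shrinks differences where signals are dim. Values from 2.58 to 14.7 show the log2 scale. Background settings and chip definition: not given in the sources used here.

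Genotypes came from the sample titles. Genes were named from probe sets with exactly 1 symbol in the platform annotation, taking the brightest by the mean of 6 arrays. All 33 measured p53 target genes matched RefSeq by gene identifier. Knockout and wild type were compared in R 4.3.3 by limma 3.58.1 (lmFit, then eBayes, no trend, no covariate, no filter), with Benjamini-Hochberg adjustment over all probe sets at 0.05; the total degrees of freedom were 6.23. The fit was tested on simulated data. With 3 samples per genotype the smallest exact permutation p is 0.10, so none was used. The genes and lists were chosen with earlier results of these data known. Named were all members, Etv5, Trp53, Cdkn1a, Cdkn2a, Bax and Bbc3, and list genes that passed; Tob2, Btg4, Bak1, Pmaip1, Tnfrsf10b and markers below the threshold were named after their values were seen. Lists covered p53 regulators, CDK inhibitors and death effectors, further p53 targets, paralogs, FOXO genes, cell cycle genes and 5 sets of cell type markers. Alternatives were a replicate block, a filter, other normalizations, variance models, weights and thresholds, averaged probe sets and each sample left out. The number of arrays limits the precision, and no column was left unused.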

Additional observations from a re-analysis of the deposited data

How the results depend on the processing

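The 3 calls among the p53 target genes became 8 without the dimmest 40% of probe sets, 9 with only probe sets of 1 gene symbol, 9 with quantile normalization, 7 with cyclic loess, 6 with a variance trend and robust settings, 9 with array weights, 9 with probe sets averaged per gene, 1 at an adjusted p of 0.01 and 8 at 0.10; leaving out 1 sample gave 1 to 3. All of these calls were higher in the knockout. Of all probe sets, 3.08% passed in the main fit and 6.07% of 21333 without the dimmest 40%. With only probe sets of 1 gene symbol 6.4% of 21789 passed, and with averaged probe sets 6.68% of 19938 genes. The share was 3.93% with quantile normalization, 3.8% with cyclic loess, 3.83% with variance trend and robust settings, and 4.08% with array weights. It was 1.51% at 0.01, 4.15% at 0.10, and 1.59% to 2.41% with 1 sample left out. The cause of the differences between settings was not tested. The calls over all probe sets moved too: the 1095 became 1294 without the dimmest 40%, 1394 with only probe sets of 1 gene symbol, 1398 with quantile normalization, 1351 with cyclic loess, 1363 with a variance trend and robust settings, 1452 with array weights, 1475 at 0.10 and 538 at 0.01, ranged from 565 to 857 when 1 sample was left out, and were 1048 with equal array medians, where 3 p53 target genes passed. With the sample number as a replicate block there were 544 calls, and 2 among the p53 target genes, Btg1 and Btg2; same-numbered samples had deviations that correlated at -0.12, 0.016 and 0.26 across probe sets, not every sample correlated best with its own number, and no pairing was assumed. The median change of the p53 target genes stayed between 0.13 and 0.22 in the 15 other fits, and 12 to 20 genes were higher at an unadjusted p under 0.05. Btg2 passed in all 15 of these fits. Differences near 0 changed sign when 1 sample was left out, with ranges of -0.018 to 0.028 for Ppm1d, -0.069 to 0.098 for Klf4, -0.018 to 0.196 for Gadd45g, -0.101 to 0.012 for Perp, -0.0087 to 0.0501 for Aen, -0.062 to 0.022 for Rrm2b and -0.026 to 0.028 for Bbc3. Rrm2b was 2.6e-05 with array weights, and the mean of the Etv5 probe sets changed by -0.078, since they moved in opposite directions. With 3 arrays per genotype, 30 of the 33 genes did not pass the adjustment over all probe sets.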
